A study of Drosophila melanogaster with 3 samples.

Results

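Aminoacyl-tRNA synthetases join each amino acid to its tRNA before translation, and a cell with mitochondria needs this reaction in the cytoplasm and again in the mitochondrial matrix. Most of these enzymes come as a pair of nuclear genes, 1 for each compartment, and the mitochondrial form carries the suffix -m in fly nomenclature. The genes described here are the protein-coding genes of the Ensembl BDGP6 annotation whose symbol is a 3-letter amino acid code, or GluPro, followed by RS, with or without -m. The rule found 33 of 13945 protein-coding genes on the 6 main chromosome arms, 18 cytoplasmic and 15 mitochondrial forms. It uses names alone and no measured value. The subunits alpha-PheRS and beta-PheRS fall outside it by their spelling and are given with the related genes.

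The measurements come from chromatin immunoprecipitation with sequencing (ChIP-seq) of whole Drosophila melanogaster embryos, males and females pooled, aged 0 to 24 h, from a transgenic line that expresses CG9727 fused to eGFP at the C-terminus. Chromatin was sheared by sonication and precipitated with anti-GFP. The 3 samples are labelled biological replicates 1, 2 and 3 of 1 group, but no label says that they came from separate embryo collections, so the spread between them may be partly technical. There is no second group, no label names the promoter that drives the fusion, and whole embryos do not tell which cells carried the protein at a site. Values are peaks from the authors' lists, namely 30000 peaks for each replicate, 30000 for the pool, and 7896 that passed the irreproducible discovery rate (IDR), which were the 7896 strongest of the pooled list. The 30000-peak pooled list is labelled as peaks and background, so a summit below the IDR list may be background. Read depth is unknown from these lists. A gene counts as bound if any of its transcription start sites (TSSs) had a peak summit within 500 bp, and negative offsets are upstream. Signal is the authors' value for a peak and is compared by rank within a list only.

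CG9727-eGFP was found at the promoters of most cytoplasmic synthetase genes and at few of the mitochondrial ones. In the IDR list 12 of 18 cytoplasmic genes (66.7%) and 4 of 15 mitochondrial genes (26.7%) were bound, against 27.0% of all protein-coding genes. The mitochondrial share thus lay next to the background and the cytoplasmic share well above it. The bound cytoplasmic genes were AlaRS, ArgRS, AsnRS, AspRS, GlnRS, GluProRS, GlyRS, IleRS, MetRS, SerRS, ThrRS and ValRS. The bound mitochondrial genes were ArgRS-m, AspRS-m, CysRS-m and ProRS-m. Together 16 of 33 members (48.5%) were bound. A summit between 2 genes could count for both. With each summit given only to its nearest TSS, 44.4% of cytoplasmic, 13.3% of mitochondrial and 20.4% of all coding genes were bound.

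The sequences under 5 of these summits are printed to show the strongest cytoplasmic sites beside a pair of mitochondrial ones. Each is centred on the IDR summit, reads 5′ to 3′ on the strand of the synthetase gene, and was taken from the RefSeq copy of the dm6 assembly. Windows span 50 bp to either side and are trimmed where they would enter an annotated exon, so that the summit is base 51 in all. Capitals mark matches on either strand to any of 8 words: the DRE (TATCGATA), the Motif 1 core (GGTCACAC), the E-box (CACGTG), an ATF4 response element (TGATGNAA), the core of Ohler motif 6 (GGTATTT), the BEAF-32 core word (CGATA), the TATA box (TATAAA) and a CTCF core (AGGNGGC). The BEAF-32 core word is contained in the DRE word. The first 3 windows belong to the strongest bound members that could be shown, IleRS (chr3L:22288426-22288526, plus strand), GluProRS (chr3R:23958497-23958597, minus strand) and ThrRS (chr2L:12103517-12103617, plus strand). The last pair are mitochondrial forms, ProRS-m (chr3L:2651984-2652084, minus strand) and AspRS-m (chr2L:16827000-16827077, plus strand). This pair are the bound mitochondrial genes with the BEAF-32 core word near the summit, so they do not represent the mitochondrial forms. ArgRS-m, with a stronger peak than AspRS-m (rank 4279 against 6870), is not printed.
IleRS: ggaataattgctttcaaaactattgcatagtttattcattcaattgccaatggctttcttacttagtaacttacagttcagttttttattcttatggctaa
GluProRS: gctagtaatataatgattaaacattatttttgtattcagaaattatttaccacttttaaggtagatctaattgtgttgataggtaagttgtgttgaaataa
ThrRS: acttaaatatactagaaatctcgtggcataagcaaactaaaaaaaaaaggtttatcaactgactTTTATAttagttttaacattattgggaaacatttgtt
ProRS-m: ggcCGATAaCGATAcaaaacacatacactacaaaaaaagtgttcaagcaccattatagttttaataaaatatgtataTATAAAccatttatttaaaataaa
AspRS-m: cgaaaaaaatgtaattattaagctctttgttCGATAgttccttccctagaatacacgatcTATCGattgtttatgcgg

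The IleRS and GluProRS windows hold none of the 8 words and the ThrRS window a TATA box word alone. The BEAF-32 core word occurs 2 times in each of the printed mitochondrial windows, and ProRS-m also holds a TATA box word. The other bound mitochondrial genes, ArgRS-m and CysRS-m, did not hold the BEAF-32 core word within 50 bp of the summit. The content of A and T was 71.3% in IleRS, 76.2% in GluProRS, 75.2% in ThrRS, 76.2% in ProRS-m and 65.4% in AspRS-m. Over the complete windows of the 16 bound members the median was 69.3% (51.5% to 82.2%), against 66.3% for the 3544 IDR summits within 500 bp of any TSS.

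Within 50 bp of the summit, 4 of 16 bound members (25.0%) held the BEAF-32 core word, against 20.1% of those promoter summits. These were the cytoplasmic GlnRS and MetRS and the mitochondrial AspRS-m and ProRS-m. The TATA box word also occurred in 4 of 16 (25.0%), against 21.5%. Motif 1 occurred in 2, AspRS-m and GlnRS (12.5% against 2.20%), in AspRS-m not within the printed bases, Ohler motif 6 in SerRS and the CTCF core in CysRS-m (6.25% each, against 3.78% and 2.26%). The DRE, the E-box and the ATF4 element occurred in 0 of 16, against 3.70%, 1.24% and 1.27% of promoter summits. In whole promoters, from 250 bp before to 50 bp after a TSS, the DRE was present in 5 of 18 cytoplasmic genes (AlaRS, ArgRS, AspRS, IleRS and TrpRS) and 1 of 15 mitochondrial genes (PheRS-m), against 10.2% of all coding genes and 17.0% of bound coding genes. Of these 6 genes 4 were bound, as were 45.2% of the 1417 coding genes with a DRE. Motif 1, the element bound by the factor M1BP, was in 1 cytoplasmic promoter (GlnRS, 5.56%) and 3 mitochondrial ones (AsnRS-m, AspRS-m and ProRS-m, 20.0%). It was in 8.71% of all coding genes and 14.4% of bound coding genes. The ATF4 element, the site of a stress factor known to act on synthetase genes in mammals, was in CysRS and ThrRS only (6.06% of members, against 5.34% of coding genes).

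The difference between the forms was present in each replicate, but smaller in replicate 2. Counted over the 7896 strongest peaks of each replicate, cytoplasmic genes were bound in 12, 9 and 12 of 18 cases in replicates 1, 2 and 3, a mean of 61.1% ± 9.62 (SD, n = 3). Mitochondrial genes were bound in 3, 5 and 3 of 15 cases, a mean of 24.4% ± 7.70 (SD, n = 3). The shares of all coding genes were 27.8%, 26.4% and 27.0%. The cytoplasmic share exceeded the mitochondrial one by 46.7, 16.7 and 46.7 percentage points, a mean of 36.7 ± 17.3 (SD, n = 3) that was positive in 3 of 3 replicates. A 2-sided exact sign-flip permutation test over the replicates gave p = 0.25, which is the smallest value that 3 replicates allow. All replicates score the same genes, so the test concerns repeatability between replicates and not variation between genes. AlaRS and GlnRS were bound in replicates 1 and 3 but not in replicate 2, TrpRS in replicate 1 alone, MetRS in replicate 3 alone, and LeuRS-m and SerRS-m in replicate 2 alone. All members together were bound in 15, 14 and 15 of 33 cases, 44.4% ± 1.75 (SD, n = 3), and exceeded all coding genes by 17.4 ± 1.24 percentage points in the mean (positive in 3 of 3 replicates, exact p = 0.25).

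**Figure D1:**
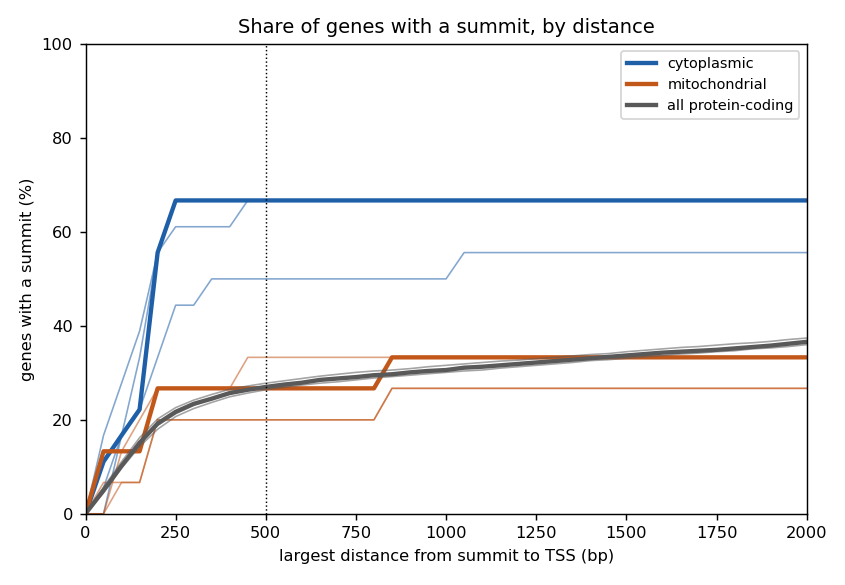
Share of genes (%) with a summit within a given distance (bp) of a TSS, for cytoplasmic synthetases, mitochondrial synthetases and all protein-coding genes. Thick lines are the IDR list and thin lines the 7896 strongest peaks of each replicate. At 500 bp (dotted line) the IDR list gave 66.7%, 26.7% and 27.0%, and the lowest cytoplasmic line is replicate 2, with 9 of 18 genes.

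No member had its nearest IDR summit between the 232 bp of AspRS and the 829 bp of LeuRS-m. Within 200 bp 14 members were bound (10 cytoplasmic and 4 mitochondrial), against 19.2% of coding genes, and in the replicates the cytoplasmic share then exceeded the mitochondrial one by 35.6, 6.67 and 35.6 percentage points. Within 1000 bp 17 were bound (12 and 5), against 30.6%. With the peak interval over a TSS in place of the summit, 15 were bound (11 and 4), against 19.9%, and with the canonical TSS alone 15 (11 and 4), against 24.1%. Among the 3948 strongest peaks of the IDR list, 8 of 18 cytoplasmic genes (44.4%) and 1 of 15 mitochondrial genes (6.67%) were bound, against 16.6% of coding genes.

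The members with the strongest promoter peaks were cytoplasmic and held their place in every replicate. IleRS, which charges tRNA with isoleucine (FBgn0027086, 3L 22288665 to 22292810), had its IDR peak at 3L 22288234 to 22288705, with the summit at −189 bp, a signal of 1381 and rank 244. Its summit ranked 207, 248 and 336 in replicates 1, 2 and 3, with signals of 534, 341 and 488. The replicate summits lay at most 20 bp from the joint one. GluProRS, a single protein that charges the tRNAs of both glutamate and proline (FBgn0005674, 3R 23952136 to 23958391), had its summit at −156 bp, a signal of 982 and rank 529, and ranked 641, 370 and 579 with signals of 326, 289 and 371. IleRS and GluProRS had the lowest IDR ranks of all bound members. Both summits lay outside any annotated gene.

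AspRS, SerRS and ThrRS followed. The AspRS peak (2R 12879800 to 12880303, signal 730, rank 948) lay −232 bp from an internal TSS, inside introns of AspRS and of the overlapping gene Nmda1, and ranked 1137, 814 and 834 in the replicates, with signals of 243, 195 and 310. Weaker summits lay closer to the AspRS TSS in the replicates, at −35, −82 and −71 bp. The SerRS summit (2L 3037226 to 3037568, signal 667, rank 1115) lay at +20 bp in the 5′ UTR of SerRS and in an intron of CG17260, the only one among bound members downstream of its TSS, and ranked 1195, 1014 and 1017, with signals of 236, 173 and 277. The ThrRS summit (2L 12103360 to 12103683, signal 580, rank 1418) lay at −184 bp and ranked 1841, 829 and 1635, with signals of 182, 193 and 210. In each replicate all 3 genes were well inside the 7896 strongest peaks.

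ArgRS and AsnRS were of middle strength. The ArgRS summit (X 15844122 to 15844625, signal 425, rank 2257) lay at −229 bp and ranked 2473, 2887 and 1911 in the replicates, with signals of 150, 86.2 and 189. The AsnRS summit (2L 19131755 to 19132258, signal 361, rank 2837) lay at −53 bp and ranked 3151, 2337 and 3127, with signals of 127, 102 and 136. Both were among the 7896 strongest peaks in every replicate.

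GlyRS, ValRS, MetRS, AlaRS and GlnRS had weaker peaks at their nearest summit, and MetRS, AlaRS and GlnRS were not among the strongest peaks of all replicates. GlyRS (3L 15094737 to 15095240, −153 bp, rank 6541) was among the strongest peaks of all replicates, with ranks of 6279, 7412 and 6578 and signals of 76.8, 40.6 and 75.3. ValRS (2R 13198411 to 13198914, −187 bp, rank 6072) was bound in all replicates too, though its nearest IDR summit had no match within 100 bp in replicate 2. A second ValRS promoter summit was stronger, at rank 3892 of the pooled list, and the strongest within the window ranked 4092, 3978 and 4855. MetRS (2R 18850526 to 18851029, −179 bp, rank 6802) ranked 11392, 9172 and 4937, so that only replicate 3 placed it among the strongest. AlaRS (2L 8381636 to 8382139, −124 bp, rank 7231, in the 3′ UTR of CG13392) ranked 10881, 7972 and 5402 at that summit, and a separate replicate 1 summit at +72 bp ranked 7805. GlnRS (3R 25265503 to 25266006, −34 bp, rank 7893) was the weakest bound member, 3 ranks from the end of the IDR list, and its strongest promoter summit ranked 6618, 16907 and 7705.

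Of the 4 bound mitochondrial genes, 3 were bound in every replicate. ProRS-m (FBgn0027082, 3L 2651782 to 2652285, signal 310, rank 3492) had its summit at −184 bp and ranked 4195, 3285 and 3493, with signals of 103, 78.6 and 125. ArgRS-m (FBgn0037526, 3R 7886759 to 7887262, signal 264, rank 4279) had its summit at −34 bp and ranked 3269, 5209 and 5669, with signals of 124, 54.5 and 85.3. CysRS-m (FBgn0033900, 2R 14161168 to 14161671, signal 235, rank 4983) had its summit at −158 bp at the identical base in the joint list and all 3 replicates, with ranks of 5728, 3880 and 6470 and signals of 82.2, 69.3 and 76.3. AspRS-m (FBgn0051739, 2L 16826798 to 16827301, signal 179, rank 6870) differed. Its summit at −28 bp had matches at ranks 8450 and 9296 in replicates 2 and 3 and none in replicate 1, so it passed in the joint list without being among the strongest of any replicate. The median rank was 2547 for the 12 bound cytoplasmic genes and 4631 for the 4 mitochondrial ones, against 3580 for all 3770 bound coding genes.

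**Figure D2:**
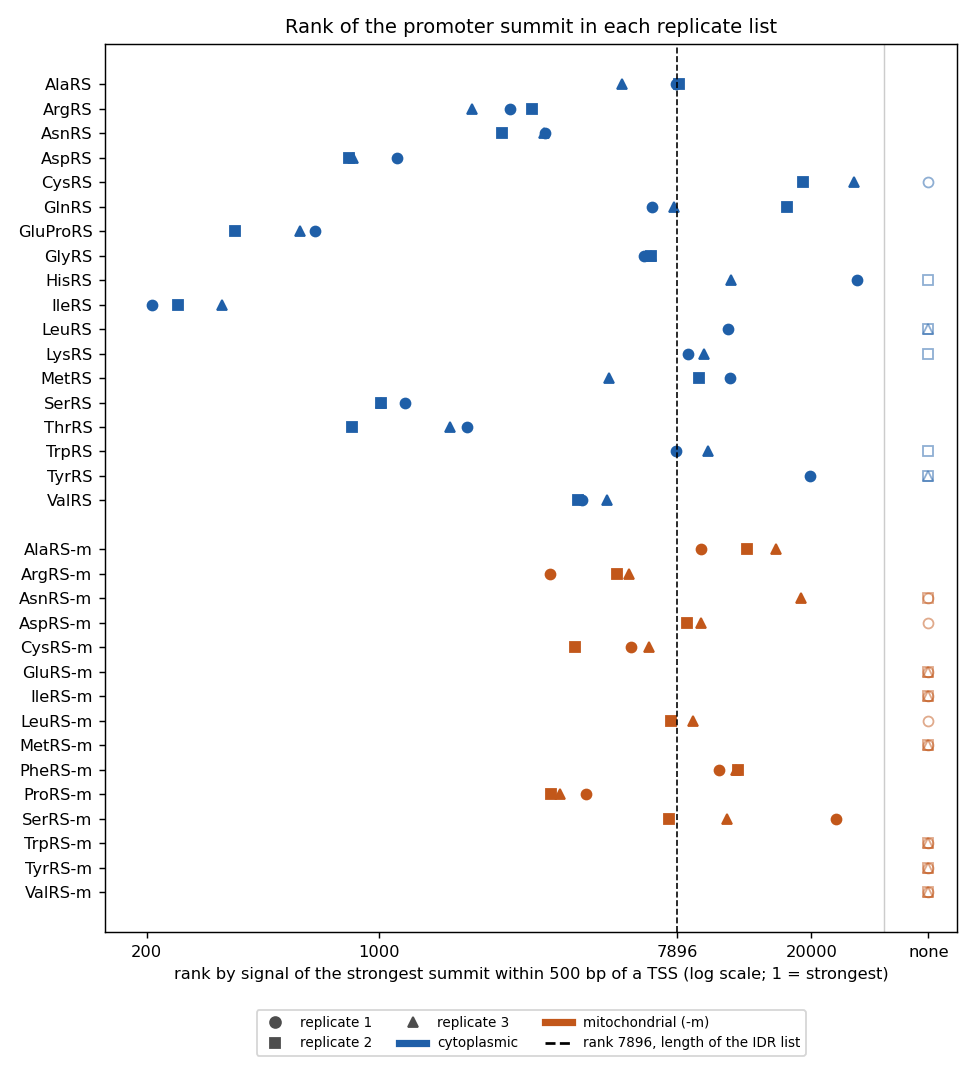
Rank by signal (log scale, 1 is the strongest) of the strongest summit within 500 bp of a TSS for each member in the complete list of each replicate. Open symbols at the right mark replicates with no such summit, and the dashed line is rank 7896. IleRS (207 to 336) and GluProRS (370 to 641) lie far left in all replicates, while 6 mitochondrial genes have open symbols only.

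In all, 12 of 33 members were bound in 3 of 3 replicates, 9 cytoplasmic and 3 mitochondrial, and 21.3% of all coding genes were. Bound in 2 were AlaRS and GlnRS, and in 1 MetRS, TrpRS, LeuRS-m and SerRS-m. The other 15 were bound in 0, as were 66.9% of coding genes.

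A promoter summit below the IDR list, in the pooled relaxed list, was present at 4 of 6 unbound cytoplasmic genes (66.7%), 4 of 11 unbound mitochondrial genes (36.4%) and 31.6% of unbound coding genes. TrpRS, which charges tryptophan, came closest, with a summit at −115 bp at rank 8240 of the pooled list (signal 152, while the IDR list ended at 158). It ranked 7840 and 9741 in replicates 1 and 3 and had no promoter summit in replicate 2. LysRS had a summit at +2 bp at pooled rank 9350, with ranks of 8508 and 9536 in replicates 1 and 3 and none in replicate 2. HisRS (+12 bp, pooled rank 16773) ranked 27431 and 11473 in replicates 1 and 3, and CysRS (−69 bp, pooled rank 23293) ranked 18805 and 26838 in replicates 2 and 3, each with no promoter summit in the remaining replicate. LeuRS and TyrRS had a promoter summit in replicate 1 alone, at ranks 11258 and 19852.

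The unbound mitochondrial genes divided into those with a weak peak and those with none. PheRS-m (−86 bp, pooled rank 11105) had similar ranks in the replicates, 10542, 11995 and 11899, and AlaRS-m (+14 bp, pooled rank 10870) had its strongest promoter summits at 9324, 12774 and 15618. SerRS-m (−433 bp, pooled rank 10668) ranked 23661, 7436 and 11165. LeuRS-m (−14 bp, pooled rank 14620) ranked 7579 and 8776 in replicates 2 and 3 and had no promoter summit in replicate 1. AsnRS-m had a summit within the window in replicate 3 alone (+419 bp, rank 18632). GluRS-m, IleRS-m, MetRS-m, TrpRS-m, TyrRS-m and ValRS-m had no summit within 500 bp in the IDR list, the pooled list or any replicate. This held for 6 of 15 mitochondrial genes (40.0%), 0 of 18 cytoplasmic genes and 38.0% of coding genes.

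Counted over the complete relaxed lists, the gap between the forms was of similar size. The pooled list placed a summit at 16 of 18 cytoplasmic genes (88.9%) and 8 of 15 mitochondrial genes (53.3%), against 50.1% of coding genes. The replicates gave 17, 13 and 16 cytoplasmic and 6, 8 and 9 mitochondrial genes, against 52.0%, 47.7% and 50.4% of coding genes. The difference averaged 34.1 ± 18.3 percentage points (SD, n = 3), positive in 3 of 3 replicates (exact p = 0.25).

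**Figure D3:**
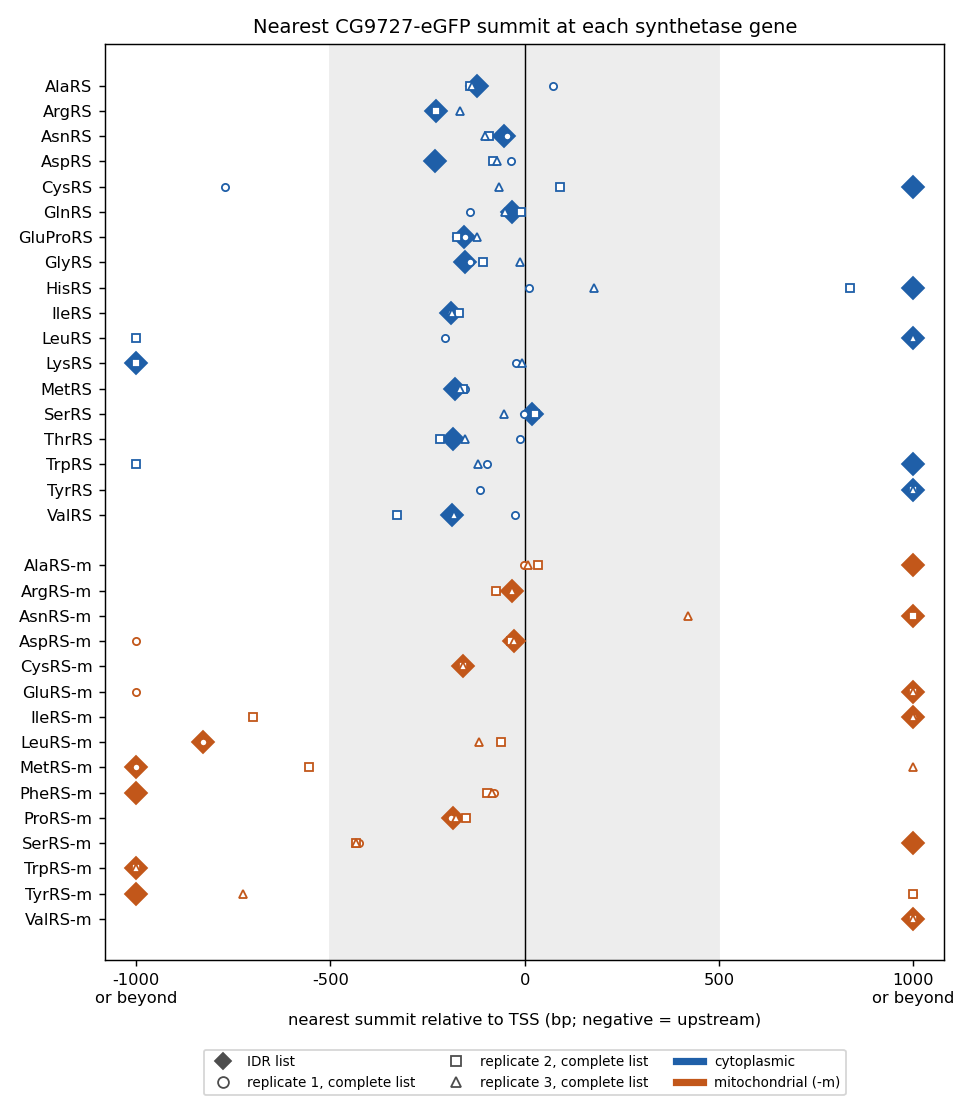
Offset (bp, negative is upstream) of the summit nearest to any TSS of each member, in the IDR list (filled diamonds) and the complete list of each replicate (open symbols). Values beyond 1000 bp are drawn at the edge, and the grey band is the 500 bp window. The diamonds of bound members lie between −232 and +20 bp, while some of their replicate symbols lie outside this range. Most diamonds of mitochondrial genes lie at the edges.

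IDR summits nearest to unbound members mostly lay within 500 bp of the TSS of another gene. The exceptions were those nearest to LeuRS-m, HisRS and MetRS-m. In the whole IDR list 3544 of 7896 summits lay within 500 bp of a TSS. The nearest summits lay 2191 to 6910 bp from the 6 unbound cytoplasmic genes and 829 to 18102 bp from the 11 unbound mitochondrial genes. For LeuRS-m the nearest was a strong peak at −829 bp (signal 1140, rank 392), 663 bp from a TSS of Dhc64C, which encodes a dynein heavy chain. For AsnRS-m it was a peak 3289 bp away and 134 bp from the TSS of NiPp1, and for PheRS-m one 7894 bp away and 10 bp from that of Rpn13, which encodes a proteasome subunit. AlaRS-m lay 6464 bp from a peak at Srp54k, CysRS 5727 bp from one at sotv, and LeuRS 6910 bp from one at tim, the clock gene timeless. GluRS-m and TyrRS are neighbours on 3L and shared the nearest IDR summit, which lay 177 bp from the TSS of Serinc. SerRS-m lay 2633 bp from a peak at Nagk, IleRS-m 5454 bp from one at IntS9, TrpRS-m 3102 bp from one at MED19 and ValRS-m 9797 bp from one at GNBP3. TrpRS lay 6321 bp from a peak at ATP6AP2, and LysRS 6759 bp from one that was 415 bp from the TSS of Hecw. TyrRS-m lay 10152 bp from a peak nearest to a non-coding RNA gene. The HisRS summit lay 2191 bp inside the gene, as near to HisRS as to Bx. MetRS-m was the farthest of the 33, 18102 bp from a peak whose nearest TSS, 8810 bp from it, belonged to trx.

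By amino acid, 14 amino acids had a gene of both forms, with GluProRS counted for glutamate and for proline. Both forms were bound for Arg, Asp and Pro, and neither for Leu, Trp and Tyr. The cytoplasmic form alone was bound for 7 (Ala, Asn, Glu, Ile, Met, Ser and Val), and the mitochondrial form alone for Cys. These counts regroup the same members, of which 12 of 18 cytoplasmic and 4 of 15 mitochondrial genes were bound, against 27.0% of coding genes. Another 5 amino acids had no -m gene among the members. Of their genes GlnRS, GlyRS and ThrRS were bound and HisRS and LysRS were not. In animals the glycine and lysine enzymes of both compartments are known to come from a single gene.

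Several cytoplasmic synthetases are known to assemble into the multisynthetase complex with scaffold proteins. This grouping was looked at after the values were seen. Of its 8 synthetase genes 6 were bound, ArgRS, AspRS, GlnRS, GluProRS, IleRS and MetRS but not LeuRS or LysRS. Of the 10 other cytoplasmic genes 6 were bound, so bound genes occurred on both sides. Among all coding genes 27.0% were bound. Each of the 8 complex genes has a neighbour transcribed away from it within 1 kb of a TSS. Of all coding genes with such a neighbour 47.9% were bound.

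The bound summits mostly sat between the synthetase gene and a neighbour transcribed away from it. A head-to-head protein-coding neighbour within 1 kb was present at the bound TSS in 14 of 16 cases, all but AlaRS and AspRS-m, with gaps of 8 to 513 bp between the TSSs, and at 60.1% of all 3770 bound coding genes. In 12 of these 14 the summit lay between the TSSs, the exceptions being SerRS and AspRS, and for bound coding genes with such a neighbour the share was 79.3%. The median offset was −157 bp, and 15 of 16 summits (93.8%) lay upstream, against −121 bp and 83.6% for all bound coding genes. The replicates gave medians of −142, −154 and −153 bp.

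Which promoter of such a pair the binding belongs to was not tested. For 10 of 16 bound members the synthetase TSS was the nearest of any gene, and for 75.1% of bound coding genes their own TSS was. For the other 6 another gene was nearer. The CysRS-m summit lay 10 bp from the TSS of O-fut1, the O-fucosyltransferase that modifies Notch. The ProRS-m summit lay 54 bp from that of CG42304, the MetRS summit 66 bp from that of CG15084, and the ArgRS summit 102 bp from that of CG8578. The GluProRS summit lay 104 bp from the TSS of AP-1sigma, a clathrin adaptor subunit, and the AspRS summit 178 bp from one of Nmda1. The IleRS summit was nearer to IleRS (189 bp) than to Hem (281 bp), which encodes a subunit of the complex that activates actin branching. When each IDR summit was given only to its nearest TSS, 8 of 18 cytoplasmic genes (44.4%) and 2 of 15 mitochondrial genes (13.3%) were bound, against 20.4% of coding genes. Over the replicates, the excess of all members over coding genes was then 2.73 ± 1.87 percentage points (SD, n = 3, positive in 3 of 3 replicates, exact p = 0.25), in place of 17.4.

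**Figure D4:**
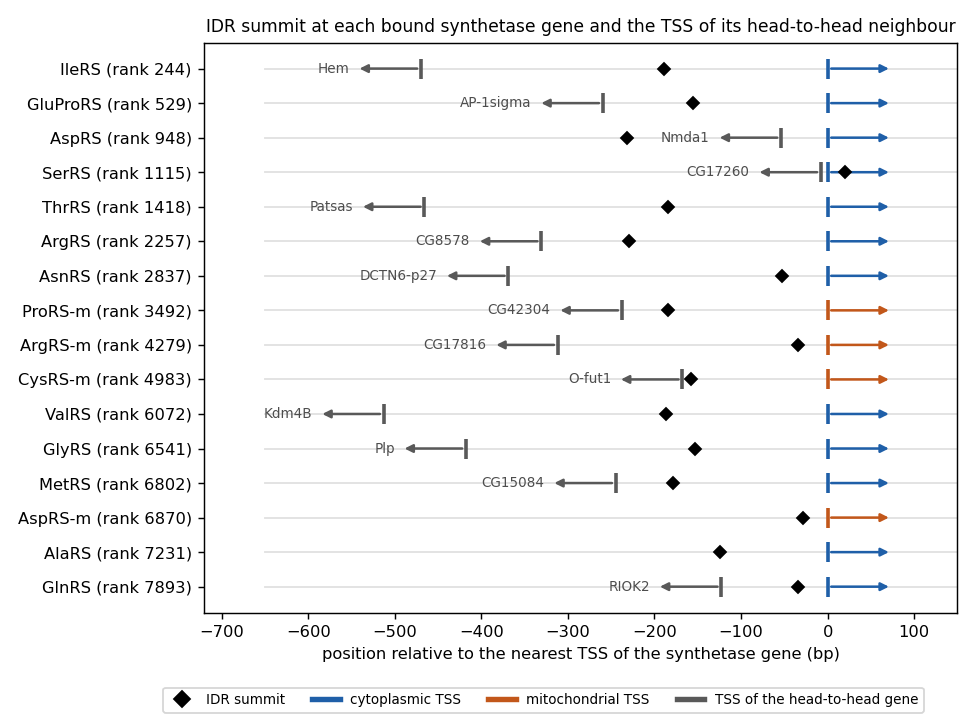
Position (bp) of the IDR summit (diamond) and of the nearest head-to-head TSS (grey) relative to the bound TSS (coloured, 0) of each of the 16 bound members, ordered by rank. Arrows give the direction of transcription. In 12 rows the diamond lies between the grey and the coloured TSS.

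The arrangement of the genes differed between the forms in the same direction as binding. A head-to-head neighbour within 1 kb of any TSS was present at 16 of 18 cytoplasmic genes (88.9%), 7 of 15 mitochondrial genes (46.7%) and 36.2% of coding genes. Among coding genes with such a neighbour 47.9% were bound, and among those without 15.2%. With a neighbour, 11 of 16 cytoplasmic genes (68.8%) and 3 of 7 mitochondrial genes (42.9%) were bound. Without one, these counts were 1 of 2 and 1 of 8. Among genes with a neighbour, a comparison chosen after the data were seen, the replicates gave 11, 9 and 11 of 16 cytoplasmic and 3, 4 and 3 of 7 mitochondrial genes. The difference was 25.9, −0.893 and 25.9 percentage points, a mean of 17.0 ± 15.5 (SD, n = 3), positive in 2 of 3 replicates (exact p = 0.5). What part the gene arrangement has in the difference between the forms was not tested.

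The number of annotated TSSs also moved with binding. A single TSS was annotated for 11 of 18 cytoplasmic and 13 of 15 mitochondrial genes, and 73.5% of coding genes. Of the members with 1 TSS, 6 of 11 cytoplasmic and 3 of 13 mitochondrial genes were bound, against 21.0% of such coding genes. Of those with more, 6 of 7 and 1 of 2 were bound, against 43.8%. By chromosome arm, bound members numbered 5 of 6 on 2L, 4 of 8 on 2R, 3 of 10 on 3L, 3 of 6 on 3R and 1 of 3 on X. The shares of coding genes bound on these arms were 25.6%, 25.4%, 27.8%, 28.9% and 27.8%.

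Of 24 other genes listed for the charging of tRNA and the steps around it, 23 were matched, all but Dtd1, and 11 were bound (47.8%, against 27.0% of coding genes). The 11 include defl, which has no role in charging, and some of their summits were nearer to another gene, as named below. The subunits of the cytoplasmic phenylalanine enzyme, alpha-PheRS and beta-PheRS, were not bound in the IDR list, with the nearest summits at +1849 and −7305 bp, although they were bound in 1 and 2 replicates. Of the scaffold proteins of the multisynthetase complex, AIMP1 was bound (−46 bp, rank 5257, nearer to PAN2) and AIMP2 and AIMP3 were not. GatA (−75 bp, rank 3740) and GatC (−63 bp, rank 5970), subunits of the amidotransferase that makes mitochondrial glutaminyl-tRNA, were bound, the former nearer to P5cr. GatB was not, nor was Slimp, a mitochondrial relative of SerRS, nor CG1750.

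Of the translation elongation factors, eEF1alpha and mitochondrial EF-Tu carry charged tRNA to the ribosome, and eEF1beta, eEF1gamma, eEF1delta and mEFTs belong to their nucleotide exchange factors. In the first set eEF1alpha1 (−20 bp, rank 3222) and mEFTu1 (−195 bp, rank 3156) were bound, and in the second eEF1gamma (−11 bp, signal 1703, rank 133). The genes eEF1alpha2, eEF1beta, eEF1delta, mEFTu2 and mEFTs were not bound. Peaks also lay at CG2100 (−268 bp, rank 486, nearer to CG1236), at RNaseZ, which trims the ends of tRNA precursors (−68 bp, rank 1932), at Gcn2, the kinase that senses uncharged tRNA (−253 bp, rank 1796, nearer to Ugt35D1), and at crc, the fly ATF4 (−201 bp, rank 5250). The entry CG18176 is now defl, an Integrator subunit with no role in charging, and it was bound (−163 bp, rank 4444, nearer to nbs). GatC was bound in 1 of 3 replicates, and the other 10 bound genes were bound in 3 of 3.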

How the data were processed

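Peaks came from chromatin immunoprecipitation of CG9727-eGFP in 3 replicates of whole embryos. Per the file descriptions, the authors deposited relaxed peak lists for each replicate and for the pool, called against a control, and a joint list thresholded by IDR, all on dm6. No label or file names the peak caller, its version or the IDR threshold. The deposited values are a signal, a −log10 q-value and a summit position for every peak, from the authors' caller, and signal was used to rank peaks within a list. Read depth is unknown, so no counting interval is given. Summits were compared with TSSs of Ensembl release 115 (BDGP6) in Python 3.11.15 with NumPy 2.4.6, and the procedure was tested on simulated data. Replicate lists were limited to their 7896 strongest peaks. Shares are given as mean ± SD, and differences with a 2-sided exact sign-flip test over replicates. Every member, every listed related gene and any gene nearer to a bound summit is named. Members and lists were chosen with earlier results of these data known. Lists on dm3 were not used. Promoter windows of 500 bp were varied to 200 and 1000 bp.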

Additional observations from a re-analysis of the deposited data

How the results depend on the processing

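Among the 42 alternative values, no mean difference between gene sets and no median offset changed sign, but several results changed in size. A count or a share has no direction, so its alternatives could differ in size only. In replicate 2 alone, the cytoplasmic minus mitochondrial difference among genes with a head-to-head neighbour was −0.893 percentage points. The count of bound members was 9 among the 3948 strongest IDR peaks and 10 when a summit was given only to its nearest TSS, in place of 16. The mean share of members bound over replicates was 36.4% within 200 bp, 46.5% within 1000 bp, 25.3% among peaks limited to that number, 23.2% with the nearest TSS only and 69.7% in the complete lists, in place of 44.4%. Without 1 replicate each it ranged from 43.9% to 45.5%. The cytoplasmic minus mitochondrial difference ranged from 31.7 to 46.7 percentage points without 1 replicate, and was 31.7 without replicate 1 or 3 and 46.7 without replicate 2. In place of 36.7 it was 25.9 within 200 bp, 22.2 with the nearest TSS only and 17.0 among genes with a head-to-head neighbour. The difference of members from all coding genes, 17.4 points, was 8.84 among the 3948 strongest peaks, 11.7 among genes with a head-to-head neighbour and 2.73 with the nearest TSS only, and ranged from 16.8 to 18.1 without 1 replicate. The median offset was −142 bp in replicate 1 alone, in place of −157 bp. The causes were not tested. No paired analysis was possible because the samples form 1 group and no second group shares their numbers; the differences between gene sets were taken within each replicate. With 3 replicates the exact sign-flip test cannot go below p = 0.25, and without read counts the precision of a single peak is unknown.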
